A study of Mus musculus with 12 samples.

Results

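The 10 genes described here, transcriptional regulators of fat cell formation, were followed through 12 RNA sequencing libraries of cultured mouse adipocytes. They are Cebpa, Cebpb, Cebpd, Prdm16, Ebf1, Ebf2, Zfp423, Klf4, Klf15 and Tle3. They were chosen by symbol, each stood at 1 locus, and together they are 10 of the 24888 gene entries measured in each library. The libraries form 6 groups of 2. Primary preadipocytes from the inguinal white fat of mice on the C57BL/6 background were of wild type (WT) or carried the label of an ATF7 knockout (KO-labelled below). They were differentiated with rosiglitazone, an activator of the nuclear receptor PPARγ, and called beige, or without it and called white. C3H10T1/2, an established mouse embryonic mesenchymal cell line, received rosiglitazone too, either as control cells or as cells that overexpress ATF7, a transcription factor of the ATF/CREB family. The labels give no age, dose or day of harvest, no construction of the knockout and no vector, and they do not say whether the 2 libraries of a group came from separate mice or cultures, so the p-values measure the spread between these libraries only.

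In the textbook order of adipogenesis, C/EBPβ and C/EBPδ, the products of Cebpb and Cebpd, appear early and switch on Pparg and Cebpa, and C/EBPα with PPARγ then maintains the mature fat cell programme. KLF4 is an early factor that acts on Cebpb, and KLF15 is a later, glucocorticoid-responsive factor linked to the glucose transporter gene Slc2a4. EBF1 and ZFP423 act in preadipocyte commitment, EBF2 marks brown and beige precursors and opens thermogenic genes to PPARγ, and ZFP423 restrains EBF2 in white fat cells. PRDM16 is a coregulator that partners C/EBPβ in the brown and beige programme, and TLE3, a Groucho-type corepressor, joins PPARγ and counters PRDM16.

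The ATF/CREB family binds the cAMP response element, so the promoters were searched for its 8-base form TGACGTCA and its 5-base core TGACG on both strands. RefSeq promoter windows of GRCm38.p6 (250 bases before to 50 after a start site) matched 8 of the 10 genes with 10 windows, since Ebf1 and Zfp423 have 2 each. The full element stood in 0 of the 10 windows, against 1.79% of all 32851 promoter windows. The core stood in 5 of the 10, against 20.8% of all windows. These were the windows of Cebpb (3 cores), Klf15 (2), Klf4 (1), Tle3 (1) and the second of Ebf1 (1, after the start). The C/EBP motif TTGCNNAA stood in 1 of 10 windows, that of Zfp423, against 10.8% of all. The GC box GGGCGG, a motif of the Sp and KLF family, stood in 6 of 10, the 2 of Zfp423 among them, against 35.7%. The shares over all windows were not matched for G and C content, on which such matches depend. Of the windows with a core, those of Cebpb, Klf4 and Klf15 were 80.7%, 74.3% and 73.3% G and C. Those of Tle3 and Ebf1 were 53.7% and 53%. A match describes letters and is not a binding site. The 250 bases before the start are shown for the 4 genes with a core there, the element's letters being those read by ATF7's family. Each is written 5′ to 3′ on the gene's strand, with cores on either strand in capitals.
Cebpb chr2:167688665-167688914 (plus strand): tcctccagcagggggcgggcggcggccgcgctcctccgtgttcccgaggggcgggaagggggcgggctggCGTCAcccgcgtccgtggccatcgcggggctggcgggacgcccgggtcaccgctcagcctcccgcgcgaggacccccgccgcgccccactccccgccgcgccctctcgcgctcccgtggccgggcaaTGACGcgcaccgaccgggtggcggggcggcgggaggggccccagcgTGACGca
Klf4 chr4:55532476-55532725 (minus strand): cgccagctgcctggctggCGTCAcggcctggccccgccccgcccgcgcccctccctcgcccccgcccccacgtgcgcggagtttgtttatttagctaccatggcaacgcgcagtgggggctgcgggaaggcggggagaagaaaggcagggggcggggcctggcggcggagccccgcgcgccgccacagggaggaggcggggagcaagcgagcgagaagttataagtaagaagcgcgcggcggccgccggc
Klf15 chr6:90462326-90462575 (plus strand): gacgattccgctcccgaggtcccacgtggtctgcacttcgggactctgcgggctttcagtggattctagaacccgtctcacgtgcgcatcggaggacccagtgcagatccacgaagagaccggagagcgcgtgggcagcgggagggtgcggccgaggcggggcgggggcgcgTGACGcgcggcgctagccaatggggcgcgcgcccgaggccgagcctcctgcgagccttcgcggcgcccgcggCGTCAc
Tle3 chr9:61372116-61372365 (plus strand): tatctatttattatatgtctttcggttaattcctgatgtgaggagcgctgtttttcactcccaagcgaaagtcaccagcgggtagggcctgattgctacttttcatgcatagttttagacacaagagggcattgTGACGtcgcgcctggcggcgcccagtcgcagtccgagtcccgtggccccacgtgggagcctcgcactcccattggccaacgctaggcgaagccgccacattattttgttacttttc
The Cebpb stretch was 81.6% G and C, with cores at positions −180, −53 and −7 from the start. Klf15 carried its cores at −78 and −6. Klf4 had its single core at −232 and Tle3 at −116.

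The deposited loci, on mm10 with 1 added to each start, place Cebpa at chr7:35119293-35121931, Cebpb at chr2:167688915-167690432 and Cebpd at chr16:15887286-15889545. Cebpb and Cebpd each have 1 exon in GENCODE. Each overlaps a gene of the opposite strand, Tmem189 for Cebpb, which reached 19.5 FPKM (fragments per kilobase, scaled to the size of the library), and Spidr for Cebpd, which reached 4.89 FPKM. Ebf2 also overlaps measured genes of the opposite strand, Gm6878, which reached 1.08 FPKM, and 4930438E09Rik, which reached 0.431 FPKM. Whether counting used strand is not given in the sources used here, so reads of these overlapping genes may not be separated. Klf4 lies at chr4:55527137-55532475, Prdm16 at chr4:154316125-154636873, Klf15 at chr6:90462626-90475209 and Zfp423 at chr8:87661810-87959595. Tle3 lies at chr9:61372366-61418497, Ebf1 at chr11:44618100-45008096 and Ebf2 at chr14:67233292-67430952.

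The labels were checked first with Atf7 itself. In the C3H10T1/2 libraries Atf7 stood at 8.52 and 9.09 FPKM in control and at 41.2 and 39.1 FPKM with ATF7 overexpressed, a limma log2 difference of 2.07 (SE 0.07, adjusted p = 0.000162). In the primary cultures it was not called lower under the KO label, and the groups overlapped. The WT beige libraries had 7.80 and 7.83 FPKM and the KO-labelled beige libraries 7.26 and 7.94 FPKM (limma log2 difference −0.04, adjusted p = 0.949). The WT white libraries had 9.10 and 7.10 FPKM and the KO-labelled white libraries 6.88 and 7.73 FPKM (−0.13, adjusted p = 0.604). A value over the whole gene does not check a deletion of part of it, and every difference below is one between libraries labelled KO and WT. The libraries held 9844 to 10877 genes at 1 FPKM or more, with small RNA genes taking 23.9% to 31.5% of the summed FPKM, and their read depth is unknown. The summed FPKM of 9 adipocyte markers was 11562 to 13025 in the beige primary libraries, 3409 to 5012 in the white ones and 12701 to 13828 in C3H10T1/2, and every marker reached 1 FPKM in every library. Fabp4 made up most of each sum, at 8602 to 9585 FPKM in beige and 1940 to 3055 FPKM in white primary libraries. Pparg stood at 45.1 to 50.5 and 38.0 to 45.8 FPKM. Limma called 7 of the 9 higher in WT beige than white and 9 in KO-labelled cultures, against 21.6% and 26.6% of all genes. Ucp1, the uncoupling protein gene of brown and beige fat cells, was at 17.2 to 51.6 FPKM in the beige primary libraries and at 0.82 to 8.71 FPKM in C3H10T1/2, and it was listed at 0 in all 4 white libraries.

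**Figure D1:**
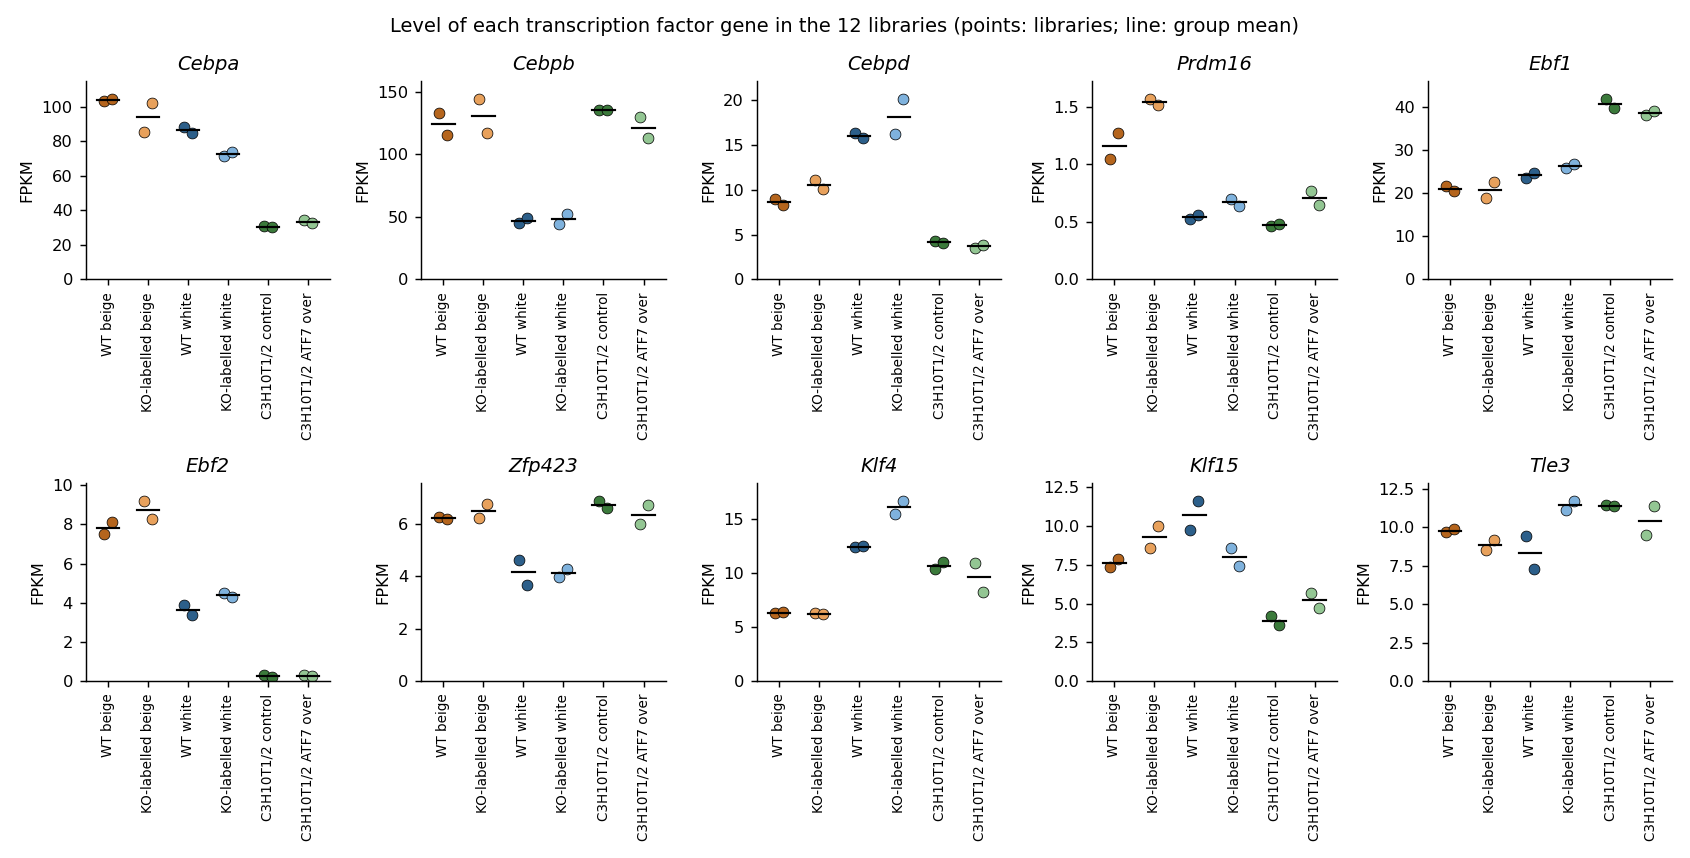
FPKM of each of the 10 genes (y axis, linear, from 0) in the 6 groups (x axis), with 1 point per library and a line at the mean of 2. Cebpb is high in every rosiglitazone group and low in both white groups, and Ebf2 lies under 0.33 FPKM in all 4 C3H10T1/2 libraries.

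Between genes, FPKM is per length and levels can be compared. Cebpa and Cebpb were the most abundant of the 10 in the primary cultures. The group means of Cebpa ran from 30.6 to 104 FPKM and those of Cebpb from 47.1 to 136 FPKM. Prdm16 was the lowest in the primary cultures, with group means between 0.544 and 1.54 FPKM, and Ebf2 was the lowest in C3H10T1/2. The spread over the 6 groups was widest for Ebf2, from 0.263 to 8.76 FPKM, and narrowest for Tle3, from 8.35 to 11.4 FPKM.

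Rosiglitazone-treated (beige) and untreated (white) cultures differed widely over the transcriptome, and the 10 factors split into higher, lower and not called. In WT cultures 7 of the 10 passed the test, 4 higher and 3 lower in beige, where 53.7% of the 11294 genes tested were called (21.6% higher and 32.1% lower). In KO-labelled cultures 9 of the 10 passed, 5 higher and 4 lower, against 61% of all genes (26.6% higher and 34.3% lower). The members' shares lie near or above those backgrounds, so the counts alone set them little apart. A call is an adjusted p under 0.05 in limma on log2(FPKM + 1), and log2 differences are on that scale, where low genes appear to change less than they do. The split between higher and lower depends on scaling. Of the WT calls 40.2% were higher as deposited, 50.9% after quantile normalization and 27.4% with small RNA genes left out. In the KO-labelled cultures these shares were 43.7%, 52.8% and 28.6%. The median log2 difference of all genes moved with it, from −0.10 to 0.02 and −0.25 in WT and from −0.06 to 0.06 and −0.28 in KO-labelled cultures.

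Cebpb showed the largest rise among the 10. It stood at 133 and 116 FPKM in WT beige libraries and at 45.3 and 48.9 FPKM in WT white ones. The KO-labelled libraries held 144 and 117 FPKM with rosiglitazone and 44.5 and 52.1 FPKM without it. All 4 beige libraries lay above all 4 white ones. In WT the beige and white groups were apart, in either direction, for each of the 10 genes (beige above for 6 and below for 4), against 77.5% of all genes, and in KO-labelled cultures for each of the 10 against 80.8%. The mean was 2.64-fold higher in WT beige (log2 difference 1.38, SE 0.14, 95% interval 1.07 to 1.69, limma adjusted p = 4.79e-05) and 2.71-fold higher in KO-labelled beige (1.42, SE 0.14, limma adjusted p = 2.91e-05).

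Cebpd, the other early C/EBP, went the opposite way. WT beige libraries had 8.97 and 8.24 FPKM and WT white libraries 16.3 and 15.7 FPKM, with KO-labelled libraries at 11.1 and 10.03 FPKM (rosiglitazone) and at 16.2 and 20.1 FPKM (none). Every white library exceeded every beige one. Cebpd was 1.86-fold lower in WT beige (log2 difference −0.83, SE 0.12, limma adjusted p = 0.0004) and 1.72-fold lower in KO-labelled beige (−0.72, SE 0.12, limma adjusted p = 0.00069).

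For Cebpa, the factor of the mature fat cell, the difference was small and its sign depends on scaling. It was at 104 and 105 FPKM in WT beige, 88.3 and 84.6 FPKM in WT white, 85.5 and 102 FPKM in KO-labelled beige and 71.4 and 73.9 FPKM in KO-labelled white libraries. WT beige and WT white did not overlap, yet the difference missed the threshold (log2 difference 0.27, SE 0.11, 95% interval 0.01 to 0.52, limma adjusted p = 0.0712). It passed in 4 of 16 settings, namely after median centring (0.37, limma adjusted p = 0.00767), with all 12 libraries in a fit (limma adjusted p = 0.0276) and without either KO-labelled beige library (limma adjusted p = 0.0269 and 0.0272). In KO-labelled cultures it passed (0.36, SE 0.11, limma adjusted p = 0.0194). After quantile normalization the sign turned, to −0.12 in WT and −0.06 in KO-labelled cultures, neither called. With small RNA genes left out the KO-labelled difference was 0.13 (limma adjusted p = 0.226). The KO-labelled call was also lost when KO-labelled beige replicate 2 was left out (0.23, limma adjusted p = 0.0837) or either KO-labelled white library (0.34 and 0.39, limma adjusted p = 0.101 and 0.0689). By rank within its library Cebpa was gene 282 or 283 from the top in WT beige and gene 246 or 274 in WT white.

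The C/EBP genes can also be set against each other within a library. Cebpb over Cebpa was 1.28 and 1.11 in WT beige, 1.69 and 1.15 in KO-labelled beige, 0.514 and 0.578 in WT white and 0.623 and 0.706 in KO-labelled white libraries. Cebpd over Cebpb was 0.0674 to 0.0854 in the 4 beige libraries and 0.322 to 0.386 in the 4 white ones. These ratios need no scaling between libraries. Of the other C/EBP genes and the partner CHOP, 2 of 3 were tested and both rose in beige cultures of both genotypes. Ddit3, which encodes CHOP, a stress-induced partner that keeps C/EBP proteins from their usual sites, stood at 118 and 116 FPKM in WT beige and 17.4 and 28.9 FPKM in WT white libraries (log2 difference 2.33, SE 0.19, limma adjusted p = 1.61e-05). Cebpg, another dimer partner, stood at 20.8 and 20.6 FPKM against 10.9 and 12.8 FPKM (0.76, SE 0.11, limma adjusted p = 0.000368).

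**Figure D2:**
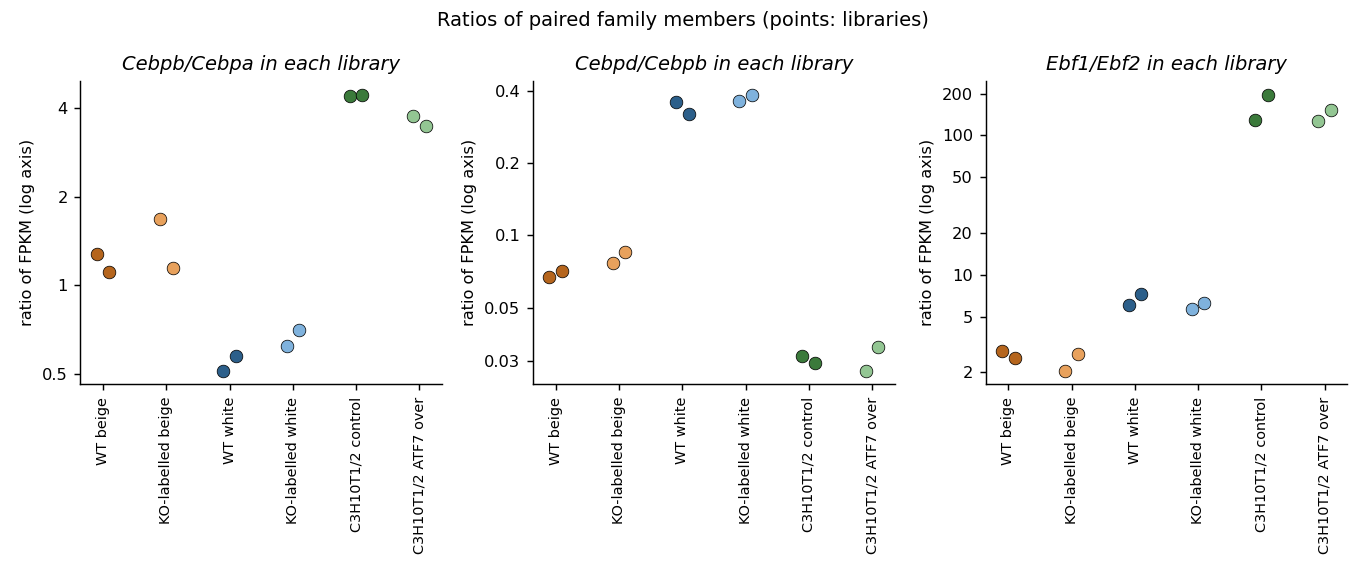
Ratio of FPKM between 2 family members within each library (y axis, logarithmic) for the 6 groups (x axis), 1 point per library. Cebpb exceeds Cebpa in every rosiglitazone-treated library and lies below it in all 4 white libraries, and Ebf1 exceeds Ebf2 by 128 to 196 times in C3H10T1/2.

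Ebf2 and Prdm16, the factors tied to the beige lineage, rose with rosiglitazone in both genotypes, and so did Zfp423, a factor of preadipocyte commitment. Ebf2 stood at 7.54 and 8.13 FPKM in WT beige and 3.87 and 3.36 FPKM in WT white libraries, and at 9.21 and 8.31 against 4.49 and 4.29 FPKM in KO-labelled ones. Beige and white did not overlap in either genotype. The rise was 2.17-fold in WT (log2 difference 0.94, SE 0.10, 95% interval 0.71 to 1.17, limma adjusted p = 7.88e-05) and 2.00-fold in KO-labelled cultures (0.86, SE 0.10, limma adjusted p = 9.93e-05).

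Prdm16 was a low gene throughout. It stood at 1.05 and 1.28 FPKM in WT beige, 0.529 and 0.558 FPKM in WT white, 1.57 and 1.52 FPKM in KO-labelled beige and 0.699 and 0.640 FPKM in KO-labelled white libraries. Beige exceeded white in every library. The mean of Prdm16 was 2.14-fold higher in WT beige and 2.3-fold higher in KO-labelled beige. On the log2 scale the gene differed by 0.48 in WT (SE 0.11, limma adjusted p = 0.00443) and 0.61 in KO-labelled cultures (SE 0.11, limma adjusted p = 0.00103). Prdm16 passed the low-value filter only through the beige libraries, so a difference was built into its passing. Without the filter the differences were the same, with limma adjusted p = 0.00408 in WT and 0.00117 in KO-labelled cultures.

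Zfp423, known as a brake on EBF2, rose beside it. It stood at 6.27 and 6.17 FPKM in WT beige against 4.62 and 3.68 FPKM in WT white libraries (log2 difference 0.49, SE 0.11, limma adjusted p = 0.0049). Under the KO label it stood at 6.25 and 6.76 FPKM with rosiglitazone and at 3.99 and 4.28 FPKM without it (0.55, SE 0.11, limma adjusted p = 0.00239). Its relative Zfp521, a repressor of adipogenesis that acts on Ebf1 and Zfp423, fell from 10.05 and 10.6 FPKM in WT white to 1.36 and 1.115 FPKM in WT beige libraries (−2.34, SE 0.12, limma adjusted p = 1.25e-06).

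Ebf1 was the more abundant EBF, with small differences. It stood at 21.6 and 20.5 FPKM in WT beige against 23.7 and 24.6 FPKM in WT white libraries (log2 difference −0.19, SE 0.11, 95% interval −0.43 to 0.05, limma adjusted p = 0.161). In WT it was called lower after quantile normalization (−0.23, limma adjusted p = 0.0398) and with small RNA genes left out (−0.35, limma adjusted p = 0.00575). Under the KO label it had 19.0 and 22.6 FPKM with rosiglitazone and 25.8 and 26.8 FPKM without it (−0.33, SE 0.11, limma adjusted p = 0.0236). That call was lost after median centring (−0.22, limma adjusted p = 0.0501), without KO-labelled beige replicate 1 (−0.21, limma adjusted p = 0.106) and without KO-labelled white replicate 1 or 2 (−0.36 and −0.30, limma adjusted p = 0.0726 and 0.119). Ebf1 over Ebf2 was 2.06 to 2.87 in the 4 beige libraries and 5.75 to 7.33 in the 4 white ones, with no overlap. Ebf3, the only other EBF gene tested, stood at 3.23 and 3.21 FPKM in WT beige and 3.64 and 3.88 FPKM in WT white libraries (−0.17, limma adjusted p = 0.158). Under the KO label its beige libraries held 3.58 FPKM each and its white ones 4.82 and 4.23 FPKM (−0.27, limma adjusted p = 0.036), a call made in 2 of 4 scalings and lost without the filter (limma adjusted p = 0.0511).

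Relatives and partners of PRDM16 and other regulators of the beige programme were called in both directions. Of 17 such genes, 14 were tested in WT, with 5 higher and 3 lower in beige, and a median log2 difference of 0.13 beside −0.10 over all genes. The coactivator genes Ppargc1b (11.1 and 11.4 against 1.82 and 1.99 FPKM, log2 difference 2.08, limma adjusted p = 7.75e-07) and Ppargc1a (6.07 and 6.37 against 1.17 and 1.38 FPKM, 1.67, limma adjusted p = 1.2e-05) rose, as did Esrra (1.52, limma adjusted p = 2.64e-05), which encodes a nuclear receptor of mitochondrial genes. Tbx15, a T-box factor of brown and beige adipogenesis, fell from 11.5 and 12.3 to 4.48 and 4.52 FPKM (−1.23, limma adjusted p = 1.53e-05). Of 17 thermogenic genes 13 were tested, and these were higher in beige cultures of both genotypes. In each genotype 7 of the 13 reached 1 FPKM in beige libraries only, so a difference was built into their passing the filter. Without the filter 14 of 17 were higher and 0 lower in WT, and 15 higher and 2 lower in KO-labelled cultures.

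Of the Krüppel-like factors, Klf4 was lower in beige cultures of both genotypes. It stood at 6.30 and 6.38 FPKM in WT beige against 12.4 and 12.5 FPKM in WT white libraries. In the KO-labelled libraries it was at 6.29 and 6.20 FPKM with rosiglitazone and at 15.5 and 16.7 FPKM without it. All 4 white libraries lay above all 4 beige ones. Klf4 was 1.96-fold lower in WT beige (log2 difference −0.87, SE 0.09, 95% interval −1.07 to −0.67, limma adjusted p = 5e-05) and 2.57-fold lower in KO-labelled beige (−1.23, SE 0.09, limma adjusted p = 4.48e-06).

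Klf15 was called lower in WT beige and not in KO-labelled beige, and the test of that difference, given further on, missed the threshold. It stood at 7.34 and 7.91 FPKM in WT beige against 9.75 and 11.6 FPKM in WT white libraries (log2 difference −0.44, SE 0.12, limma adjusted p = 0.0152). The call was lost without WT beige replicate 1 (−0.39, limma adjusted p = 0.0896) and without WT white replicate 2 (−0.32, limma adjusted p = 0.0936). Under the KO label it reached 8.60 and 10.03 FPKM with rosiglitazone and 8.59 and 7.45 FPKM without it (0.19, SE 0.12, 95% interval −0.08 to 0.47, limma adjusted p = 0.198). Median centring made the latter a call (0.30, limma adjusted p = 0.045), and leaving out small RNA genes turned it to −0.02.

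Of 9 other KLF genes tested in WT, 2 were higher and 3 lower in beige, and without the filter 1 of 15 was higher and 5 lower. Klf2 (log2 difference −1.07, limma adjusted p = 0.000296) and Klf3 (−0.65, limma adjusted p = 0.00124), known as repressors of adipogenesis, were lower, as was Klf6 (−0.63, limma adjusted p = 0.000518). Klf9, a glucocorticoid-induced factor that favours adipogenesis, was higher at 22.4 and 19.0 against 12.3 and 13.5 FPKM (0.64, limma adjusted p = 0.00175). Of 8 tested genes taken as targets of KLF15, 4 were higher and 1 lower in WT beige (4 and 0 without the filter, median log2 difference 1.05). Slc2a4 was among the higher, at 48.5 and 45.4 against 15.4 and 13.4 FPKM (1.64, limma adjusted p = 3.56e-06). Of 12 glucocorticoid-induced genes other than Klf15 and Cebpd, 6 were higher and 2 lower (5 and 2 without the filter, median 0.23). Over all genes 21.6% were higher and 32.1% lower, with a median of −0.10.

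Tle3 had the narrowest range over the groups. It stood at 9.66 and 9.89 FPKM in WT beige against 9.45 and 7.25 FPKM in WT white libraries (log2 difference 0.21, SE 0.12, 95% interval −0.06 to 0.49, limma adjusted p = 0.166). Without WT white replicate 1 the difference was 0.39 (limma adjusted p = 0.0221), and median centring also gave a call (0.32, limma adjusted p = 0.0449). The KO-labelled libraries with rosiglitazone had 8.50 and 9.19 FPKM, and those without it 11.1 and 11.7 FPKM (−0.34, SE 0.12, limma adjusted p = 0.0384). That call was lost in 8 of 16 settings, among them each removal of a WT beige, KO-labelled beige or KO-labelled white library (limma adjusted p = 0.0596 to 0.16). The related corepressor Tle2 fell from 5.11 and 4.28 to 0.532 and 0.605 FPKM in WT (−1.86, SE 0.11, limma adjusted p = 2.67e-06). Tle2 reached 1 FPKM in the white libraries only, and without the filter limma gave an adjusted p of 7e-05.

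**Figure D3:**
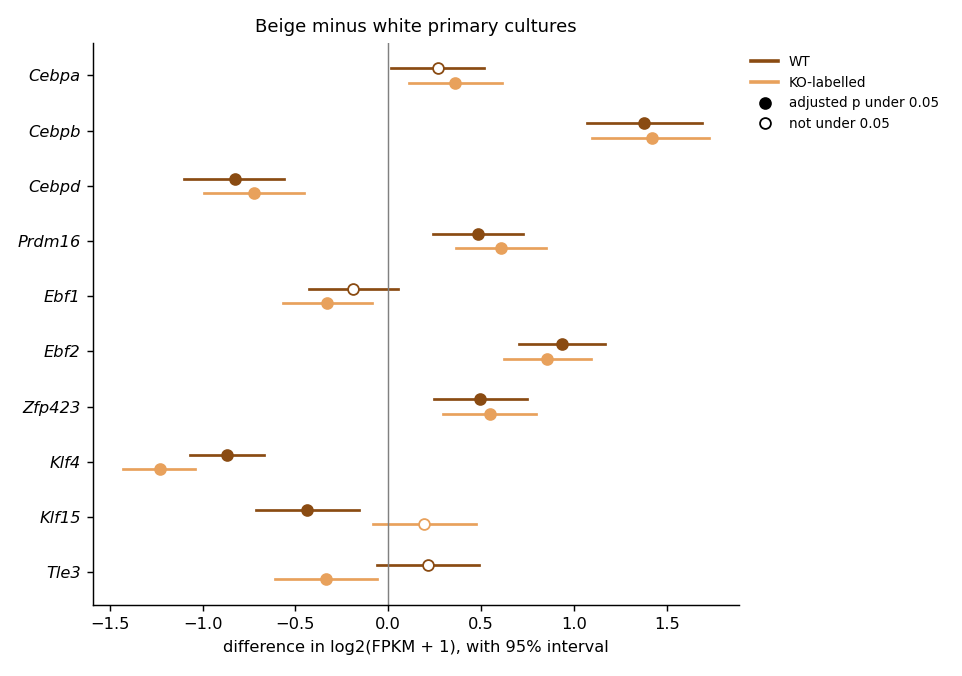
Beige minus white difference in log2(FPKM + 1) with its 95% interval (x axis) for each gene (y axis), in WT and KO-labelled primary cultures, filled where the adjusted p is under 0.05. The genes called in both genotypes are Cebpb, Ebf2, Prdm16 and Zfp423, above 0, and Cebpd and Klf4, below 0.

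Cebpb, Cebpd, Prdm16, Ebf2, Zfp423 and Klf4 were called in both genotypes in 16 of 16 settings tried, libraries left out included. Markers of other cells moved with the treatment. The summed FPKM of 20 macrophage markers was 38.5 to 51.7 in the 4 beige libraries and 581 to 916 in the 4 white ones, and 20 of 20 were lower in beige in each genotype, with and without the filter. For 15 stromal and precursor markers the sums were 730 to 1043 and 4124 to 5111 FPKM, and all 14 tested were lower in beige, as were all 15 without the filter. Endothelial sums (10 markers, 3 tested) were 4.38 to 5.11 and 10.6 to 12.3 FPKM, and the sum of 10 lymphoid and mast cell markers stayed under 0.6 FPKM. The sums of 10 pericyte markers were 88.8 to 93.4 and 144 to 150.1 FPKM in WT beige and white, and overlapped under the KO label (95.9 to 128 and 101 to 110.1 FPKM). The part of these cells in the differences of the 10 genes was not tested. In bulk libraries fewer cells of a type and less RNA per cell cannot be told apart. Of 20 tested genes that are known to oppose adipogenesis, 11 were lower and 4 higher in WT beige (median log2 difference −0.65), and of 17 that favour it 4 were higher and 4 lower (0.04). Over all genes 32.1% were lower and 21.6% higher, with a median of −0.10, so the second list lay near that background.

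Between KO-labelled and WT beige cultures 0 of the 10 genes were called, with 0 under an unadjusted p of 0.05 as well, where limma called 17 of 11294 genes (0.151%) and put 1160 under the unadjusted threshold. The groups did not overlap for 7 of the 10, against 41.2% of all genes. Cebpd, Klf15 and Prdm16 had the largest differences. Cebpd differed by 0.27 on the log2 scale (95% interval −0.0027 to 0.53, limma adjusted p = 0.486) and Klf15 by 0.26 (−0.02 to 0.53, limma adjusted p = 0.51). Prdm16, at 1.57 and 1.52 against 1.05 and 1.28 FPKM, differed by 0.24 (−0.0050 to 0.48, limma adjusted p = 0.491). Both KO-labelled libraries lay above both WT libraries for each of the 3. For the other 7 the differences ran from −0.15 for Cebpa (−0.40 to 0.10, limma adjusted p = 0.682) to 0.14 for Ebf2 (−0.09 to 0.37, limma adjusted p = 0.672), and the widest of these 7 intervals was that of Cebpb (−0.24 to 0.38). Differences as large as the bounds of each interval, lower as well as upper, are therefore compatible with these libraries. None of the tested thermogenic genes was called as deposited either. Their median log2 difference was 0.41 over 13 genes, beside 0.04 over all genes. Among them Cox8b was called higher in 1 of 4 scalings (0.68 to 0.73).

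Between KO-labelled and WT white cultures 0 of the 10 were called and 3 were under an unadjusted p of 0.05, where limma called 213 of 11294 genes (1.89%) and put 2246 under the unadjusted threshold. Of the 213 calls 67.1% were higher, a share that was 50.4% after quantile normalization and 52.8% after median centring. The 3 were Klf4, Tle3 and Klf15. Klf4 stood at 15.5 and 16.7 FPKM in KO-labelled against 12.4 and 12.5 FPKM in WT white libraries, 1.29-fold higher (log2 difference 0.35, SE 0.09, 95% interval 0.15 to 0.55, limma adjusted p = 0.0852). Tle3 stood at 11.1 and 11.7 against 9.45 and 7.25 FPKM (0.42, SE 0.12, 95% interval 0.14 to 0.69, limma adjusted p = 0.115). Without WT white replicate 1 its difference was 0.59 and passed (limma adjusted p = 0.044). Klf15 went down, from 9.75 and 11.6 FPKM in WT to 8.59 and 7.45 FPKM in KO-labelled libraries (−0.37, SE 0.12, 95% interval −0.65 to −0.10, limma adjusted p = 0.149). The groups did not overlap for any of the 3, and for 7 of the 10 in all, against 53.4% of all genes.

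Cebpa was at 71.4 and 73.9 FPKM in KO-labelled against 88.3 and 84.6 FPKM in WT white libraries (log2 difference −0.25, 95% interval −0.50 to 0.0040, limma adjusted p = 0.257). Ebf2 was at 4.49 and 4.29 against 3.87 and 3.36 FPKM (0.22, −0.01 to 0.45, limma adjusted p = 0.262). Prdm16, Ebf1 and Cebpd differed by 0.11 to 0.16, and Cebpb and Zfp423 by 0.03 and 0.0021. For Prdm16, under 1 FPKM in these libraries, the means differed 1.23-fold and the groups did not overlap. Among relatives, Tle2 was called higher at 7.09 and 7.48 against 5.11 and 4.28 FPKM (0.54, SE 0.11, limma adjusted p = 0.0439), though in only 2 of 4 scalings and not without the filter (limma adjusted p = 0.0847). Gpt and Pck1, of the 8 tested genes taken as KLF15 targets, were lower (−0.92 and −1.03, limma adjusted p = 0.0292 and 0.0339), calls lost without the filter (limma adjusted p = 0.0647 and 0.0789). Markers of other cells moved here too. The summed macrophage markers were 581 to 652 FPKM in WT and 865 to 916 FPKM in KO-labelled white libraries, with 8 of 20 called higher (2 without the filter). Adipocyte markers summed to 4399 to 5012 and 3409 to 3437 FPKM, with 2 of 9 lower (0 without the filter), and stromal sums overlapped (4124 to 5111 and 4438 to 4714 FPKM), with 1 of 14 higher (0 of 15 without the filter). Their part in the values of Klf4, Tle3 and Klf15 was not tested.

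Klf15, Tle3 and Klf4 were also the members whose KO-labelled minus WT difference varied most between beige and white cultures. Klf15 was higher in both KO-labelled libraries in beige and lower in both in white, and Tle3 was the reverse. The interaction term, the difference in beige minus that in white, was 0.63 for Klf15 (SE 0.17, 95% interval 0.24 to 1.02, limma adjusted p = 0.175). For Tle3 it was −0.55 (SE 0.17, −0.94 to −0.16, limma adjusted p = 0.2) and for Klf4 −0.37 (SE 0.12, −0.65 to −0.09, limma adjusted p = 0.213). None passed the threshold, 3 of 10 were under an unadjusted p of 0.05, and over all genes limma called 33 (0.292%) and put 1900 under the unadjusted threshold. For the other 7 the interaction ran from −0.14 (Ebf1) to 0.12 (Prdm16), with limma adjusted p of at least 0.659. Outside the 10, 1 of 13 tested thermogenic genes was called for this term, Cox8b, in 4 of 4 scalings (0.99 to 1.05). The median of these 13 was 0.51, beside 0.01 over all genes. The comparisons of beige with white and of KO-labelled with WT share libraries, so they do not stand as separate evidence.

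**Figure D4:**
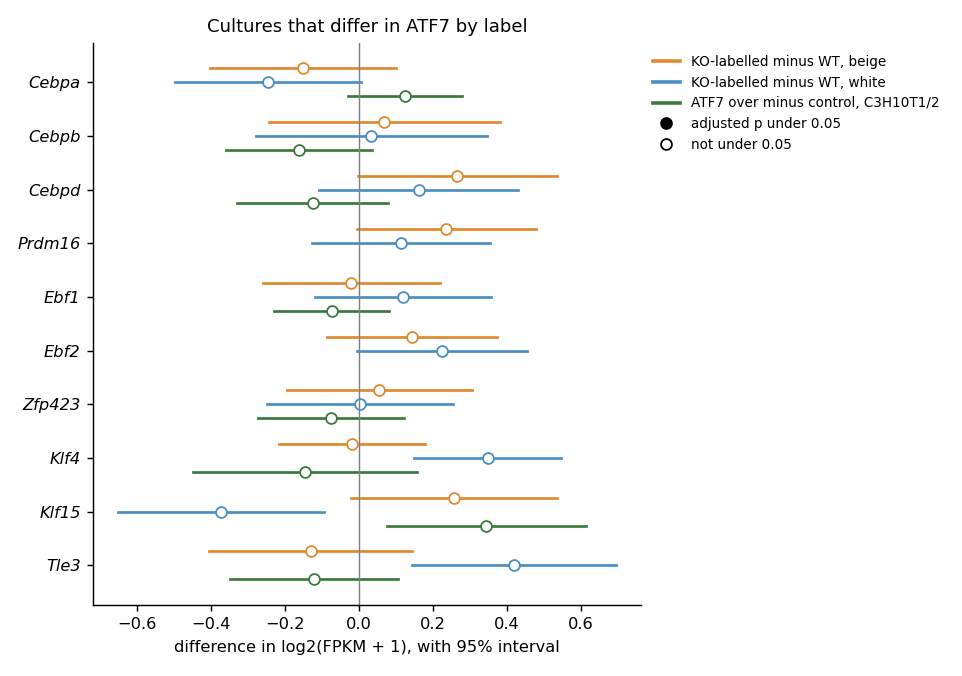
Difference in log2(FPKM + 1) with its 95% interval (x axis) for each gene (y axis) between cultures that differ in ATF7 by label: KO-labelled minus WT in beige and in white cultures, and ATF7-overexpressing minus control in C3H10T1/2. All points are open because none reached an adjusted p under 0.05, and Prdm16 and Ebf2 have no C3H10T1/2 point because they stayed under 1 FPKM there.

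With ATF7 overexpressed in C3H10T1/2 cells 0 of the 8 members tested were called, with 1 under an unadjusted p of 0.05, where limma called 149 of 9981 genes (1.49%) and put 1715 under the unadjusted threshold. Of the 149 calls 28.9% were higher, a share that was 44.9% with small RNA genes left out. The 1 was Klf15, at 5.72 and 4.71 FPKM against 4.18 and 3.60 FPKM in control (log2 difference 0.34, SE 0.11, 95% interval 0.08 to 0.61, limma adjusted p = 0.196). Cebpa stood at 34.4 and 32.6 against 30.8 and 30.5 FPKM (0.12, −0.03 to 0.28, limma adjusted p = 0.388). Cebpb stood at 130 and 113 against 136 and 136 FPKM (−0.16, −0.36 to 0.03, limma adjusted p = 0.374). The remaining 5, Cebpd, Ebf1, Zfp423, Klf4 and Tle3, differed by −0.07 to −0.15, with limma adjusted p of at least 0.499. The groups did not overlap for 6 of the 10 (Prdm16, untested, among them), against 49.1% of all genes tested.

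Prdm16 and Ebf2 stayed under 1 FPKM in all 4 C3H10T1/2 libraries and were outside the test. Prdm16 stood at 0.768 and 0.647 FPKM with ATF7 overexpressed against 0.460 and 0.483 FPKM in control, and without the filter it differed by 0.21 (limma adjusted p = 0.314). Ebf2 stood at 0.298 and 0.257 against 0.323 and 0.203 FPKM, so the groups overlapped. Thermogenic genes fell in the same libraries. Of 12 tested thermogenic genes 9 were lower, and without the filter 4 of 17, both counts including Cidea at 24.8 and 25.95 against 96.4 and 84.7 FPKM (log2 difference −1.79, limma adjusted p = 0.000472) while Ucp1 had 1.08 and 0.82 FPKM with ATF7 and 8.71 and 6.82 FPKM in control (−2.16, limma adjusted p = 0.00198). Among partners of the 10, Esrra fell (−0.59, limma adjusted p = 0.0179) and Ddit3 fell from 24.7 and 23.2 to 12.9 and 15.2 FPKM (−0.73, limma adjusted p = 0.0256). The Ddit3 call held in 3 of 4 scalings, and without the filter neither passed (limma adjusted p = 0.0748 for Esrra and 0.113 for Ddit3).

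C3H10T1/2 control cultures differed from WT primary beige cultures in most of these factors, with Ebf2 and Cebpa far lower and Ebf1 higher. In a fit of all 12 libraries 7 of the 10 differed, 2 higher and 5 lower in the cell line, where 56.4% of 11601 genes were called (31.1% higher and 25.3% lower). Cell line, strain and batch cannot be told apart in this comparison. Ebf2 was near 0 in the line, at 0.323 and 0.203 FPKM against 7.54 and 8.13 FPKM, 29.8-fold lower by the means (log2 difference −2.81, SE 0.09, limma adjusted p = 8.02e-09). It passed the filter there only through the primary libraries, and without the filter limma gave an adjusted p of 2.31e-07. Ebf1 was higher instead, at 41.9 and 39.7 against 21.6 and 20.5 FPKM (0.92, SE 0.09, limma adjusted p = 1.02e-05). Ebf1 over Ebf2 was thus 128 to 196 in the 4 C3H10T1/2 libraries. Prdm16 stood at 0.460 and 0.483 against 1.05 and 1.28 FPKM (−0.55, SE 0.09, limma adjusted p = 0.000377), while its close relative Mecom was at 7.002 and 6.50 against 0.324 and 0.253 FPKM (2.59, SE 0.11, limma adjusted p = 2.53e-08). Prdm16 too passed the filter only through the primary beige libraries, and without it limma gave an adjusted p of 0.000331.

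Within the C/EBP family Cebpb did not pass the test and the other 2 were lower in the line. Cebpb stood at 136 and 136 against 133 and 116 FPKM (log2 difference 0.13, 95% interval −0.15 to 0.41, limma adjusted p = 0.409). Cebpa stood at 30.8 and 30.5 against 104 and 105 FPKM, 3.40-fold lower (−1.73, SE 0.09, limma adjusted p = 1.24e-07), and Cebpd at 4.28 and 4.01 against 8.97 and 8.24 FPKM, 2.08-fold lower (−0.90, SE 0.11, limma adjusted p = 4.41e-05). Cebpb over Cebpa was 4.41 and 4.45 in C3H10T1/2 control and 3.77 and 3.47 in ATF7-overexpressing libraries, above every primary library. Klf15 was lower (4.18 and 3.60 against 7.34 and 7.91 FPKM, −0.82, SE 0.12, limma adjusted p = 0.000278) and Klf4 higher (10.3 and 10.99 against 6.30 and 6.38 FPKM, 0.67, SE 0.11, limma adjusted p = 0.000443). Zfp423 differed by 0.10 (95% interval −0.12 to 0.32) and Tle3 by 0.20 (−0.06 to 0.46), neither called. All 7 calls held in 19 of 19 settings. The groups did not overlap for any of the 10, against 81.8% of all genes. The macrophage markers, 38.5 to 40.04 FPKM in WT beige, summed to 1.80 to 2.38 FPKM in C3H10T1/2 control, with 10 to 16 of 20 listed at 0, and adipocyte sums were 11837 to 12410 and 12973 to 13255 FPKM. The part of these cells was not tested.

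**Figure D5:**
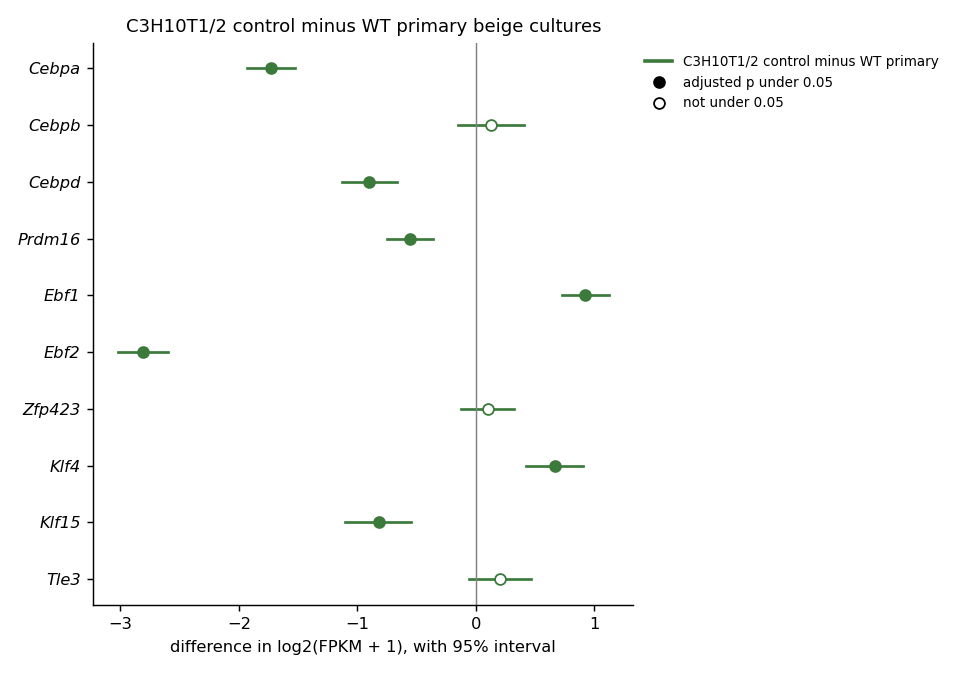
C3H10T1/2 control minus WT primary beige difference in log2(FPKM + 1) with its 95% interval (x axis) for each gene (y axis), filled where the adjusted p is under 0.05. Ebf2 lies lowest at −2.81, and Ebf1 and Klf4 are the 2 genes called higher in the cell line.

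Other genes of these circuits also differed between the sources. Tle2 stood at 7.38 and 6.71 FPKM in C3H10T1/2 control against 0.532 and 0.605 FPKM in WT beige (log2 difference 2.36, limma adjusted p = 2.62e-08). The level in the line was near that of the KO-labelled white libraries and above that of the WT white ones. Zfp521 stood at 2.82 and 2.84 against 1.36 and 1.115 FPKM (0.78, limma adjusted p = 0.000123). Ppargc1a was at 0.167 and 0.204 against 6.07 and 6.37 FPKM (−2.61, limma adjusted p = 4.56e-08). Ppargc1a reached 1 FPKM in the primary libraries only, and Tle2 and Mecom, in this comparison, in the cell line only. Without the filter limma gave adjusted p = 9.83e-07 for Ppargc1a, 5.44e-07 for Tle2 and 4.76e-07 for Mecom. Pparg itself was 1.18-fold higher, at 56.5 and 52.5 against 47.0 and 45.1 FPKM (0.24, limma adjusted p = 0.0168, called in 3 of 4 scalings). Of 12 glucocorticoid-induced genes other than Klf15 and Cebpd, 8 were lower and 0 higher in the line (median log2 difference −0.81 beside 0.06 over all genes).

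Ordered by group mean, neighbouring groups often did not separate. For Cebpb the 4 rosiglitazone-treated groups, from 121 to 136 FPKM, overlapped one with the next, and a 2.51-fold step set them apart from the white groups. For Ebf2 the steps ran from KO-labelled beige through WT beige, KO-labelled white and WT white with no overlap, and then a 13.03-fold step led to C3H10T1/2, whose 2 groups overlapped. For Klf4 the order was KO-labelled white, WT white, the C3H10T1/2 groups, which overlapped, and the beige groups. For Zfp423 and Tle3 most neighbours overlapped. For Cebpa only KO-labelled beige and WT white overlapped, for Cebpd only the white groups, and for Ebf1 only the beige groups. For Prdm16 only the ATF7-overexpressing and KO-labelled white groups did. For Klf15 WT white overlapped KO-labelled beige, and KO-labelled white overlapped WT beige.

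The 3 genes with the nearest profiles over the 6 group means were taken for each member. No limit was set on the distance, so every member has such genes. Likeness was the root mean square difference between centred log2 profiles, over 5800 genes with a mean of at least 5 FPKM, and it is a description of 6 points. Closest to Cebpb were Tbrg4, Eci2 and Immt (0.0414 to 0.061 log2 units). Closest to Ebf2 were Ifih1, Slc7a5 and Tap1 (0.154 to 0.205). F2r, Mcfd2 and Pdia3 were closest to Cebpa (0.0805 to 0.131), and Dse, Plxna1 and Lbh to Cebpd (0.0632 to 0.0981). Pip5k1c, Cul7 and Bace1 were closest to Klf4 (0.0635 to 0.067), and Cdkn2b, Spcs3 and Tmed9 to Klf15 (0.0721 to 0.116).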

How the data were processed

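RNA was sequenced in 12 libraries of mouse adipocyte cultures, 6 groups of 2 taken from the labels. Per the labels' protocols, ribosomal RNA was depleted from 50 ng of total RNA, and directional libraries were read for 36 bases from both ends. The authors deposited 1 FPKM value per gene and library, on mm10 (GRCm38) per the submitters' processing notes. The sources used here name no aligner, quantifier, annotation, filter or use of strand. Whole reads could not be recovered from the values, so depth is unknown and no counting interval was given.

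Values were joined by symbol and locus. Genes that reached 1 FPKM in 2 or more libraries of a fit were tested with limma 3.58.1 (R 4.3.3, moderated with a trend) on log2(FPKM + 1), two-sided, with Benjamini-Hochberg adjustment over all genes tested. The 8 primary libraries shared a fit (4 residual degrees of freedom), the 4 C3H10T1/2 libraries had their own (2), and the comparison of sources used all 12 (6). The fit was tested on simulated data. No replicates had identical values above 0, and their Pearson r across genes was 0.984 to 0.992. Exons and overlaps came from GENCODE vM21.

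The 10 genes, the gene lists and the markers were chosen with earlier results of these data known, and lists are described by counts and medians only. Named besides the 10 were Atf7, up to 4 genes of a list with the lowest p in a comparison, and the 3 genes most like a member whose group means span at least 1 log2 unit. Alternatives were a pseudocount of 0.1, no filter, quantile normalization, median centring, small RNA genes left out, all 12 libraries in a fit, the replicate number as a block, and each library left out.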

Additional observations from a re-analysis of the deposited data

How the results depend on the processing

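The numbers of the 10 genes called stayed at 0, 0, 7, 9, 0, 0 and 7 under the replicate block. The labels do not say whether replicate numbers pair the samples. The correlation of replicate 1 minus replicate 2 between groups was −0.0865 to 0.124, which cannot tell whether libraries of the same number share mice or cultures. The block was therefore used only as an alternative. Counts over all genes moved by more than 1.5 times in some settings, and the cause was not tested. For KO-labelled against WT beige, 17 became 26 with all 12 libraries and 27 with the replicate block. For KO-labelled against WT white, 213 became 54 with a pseudocount of 0.1, 122 without the filter, 387 after quantile normalization and 642 with all 12 libraries. The interaction count of 33 became 20 with the smaller pseudocount and 116 with all 12 libraries. The overexpression count of 149 became 22 without the filter and 88 with the replicate block.

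With each library left out in turn, the counts over all genes ranged from 5 to 20 and from 23 to 277 for the KO label in beige cultures and then in white ones, from 4717 to 6268 and from 5560 to 7028 for beige against white in WT and KO-labelled cultures, from 16 to 43 for the interaction, from 17 to 138 for overexpression and from 5335 to 6772 between the sources. The members called ranged from 0 to 0, 0 to 1, 6 to 8, 6 to 9, 0 to 0, 0 to 0 and 7 to 7 in the same order.

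Some differences changed sign, none of them called before or after except Cebpa of KO-labelled beige against white, and the cause was not tested. Cebpa of beige against white became −0.117 in WT and −0.059 in KO-labelled cultures after quantile normalization. Klf15 of KO-labelled beige against white became −0.016 with small RNA genes left out. Zfp423 of KO-labelled against WT white became −0.051 after quantile normalization and −0.029 after median centring. The Cebpb interaction became −0.043 after quantile normalization and −0.031 with small RNA genes left out, and that of Zfp423 −0.006 in the latter. With each library left out, KO-labelled against WT beige ranged from −0.079 to 0.215 for Cebpb and from −0.141 to 0.098 for Ebf1. In white cultures it ranged from −0.080 to 0.144 for Cebpb and from −0.129 to 0.133 for Zfp423. The interaction ranged from −0.033 to 0.225 for Cebpa, −0.111 to 0.183 for Cebpb, −0.043 to 0.253 for Cebpd and −0.079 to 0.183 for Zfp423. With ATF7 overexpressed Klf4 ranged from −0.329 to 0.034.

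Groups of 2 limit every comparison, depth is unknown, and the values of Prdm16 and Ebf2 under 1 FPKM are the lowest of the 10.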

Other observations

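Other regulators of adipogenesis outside the 10 also moved with rosiglitazone in WT primary cultures. The RXR genes, whose products pair with PPARγ, moved in opposite directions. Rxra had 6.76 and 6.83 FPKM in the beige and 15.8 and 13.7 FPKM in the white libraries (log2 difference −1.01, SE 0.10, limma adjusted p = 4.09e-05), and Rxrb rose from 4.51 and 4.12 to 9.51 and 8.29 FPKM (0.90, SE 0.10, limma adjusted p = 8.87e-05). In C3H10T1/2 control libraries Rxra stood at 16.5 and 17.2 FPKM, above the WT beige libraries (2.48-fold higher, limma adjusted p = 1.47e-06). Among genes that oppose adipogenesis, Hes1, a Notch target, fell from 10.07 and 12.99 to 2.65 and 3.24 FPKM (−1.66, limma adjusted p = 1.57e-05).

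Immediate early genes other than Klf4 were called in both directions, 5 higher and 8 lower of 17 tested in WT beige. Over all genes 21.6% were higher and 32.1% lower. Myc rose to 11.1 and 10.3 from 5.30 and 5.07 FPKM (0.92, limma adjusted p = 4.25e-05) and Atf3 to 7.38 and 6.02 from 1.76 and 2.49 FPKM (1.30, limma adjusted p = 9.92e-05), while Nr4a1 fell to 1.21 and 1.12 from 4.52 and 3.49 FPKM (−1.20, limma adjusted p = 5.45e-05). Among glucocorticoid-induced genes the metallothionein genes Mt1 and Mt2 rose, Mt2 to 826 and 755 from 93.3 and 57.1 FPKM (3.42, limma adjusted p = 3.5e-05), and Fkbp5, a chaperone gene much used as a read-out of the hormone, fell to 2.78 and 2.85 from 6.09 and 6.31 FPKM (−0.92, limma adjusted p = 4.47e-05).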
